A study of Homo sapiens with 16 samples.

Results

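MBOAT2, MAOA, RHOU and TMEM132D are 4 genes of the 60605 identifiers in the deposited tables that were chosen by their counts in batch 2, where nascent transcription was lower with enzalutamide. The measurements come from PRO-seq, which labels and counts RNA at actively engaged polymerases, in LNCaP, an established prostate cancer cell line whose growth depends on androgens. The 16 libraries fall into 2 batches named in the labels. Batch 2 crossed drug and irradiation in 4 groups of 2 replicates, numbered 3 and 4. Vehicle cells had DMSO for 90 min, enzalutamide cells had 10 µM of the drug for 90 min, and the irradiated group of each received 6 Gy of ionizing radiation (IR) 30 min into the treatment and was collected 60 min later. Batch 1 held mock cells and cells given 6 Gy of IR, without enzalutamide, as replicates 1 and 2, each with a library t1 and a library t2. No label explains t1 and t2, so the counts of both were summed to 1 sample. Nothing in the labels says that replicates came from separate cultures, so p-values measure the spread between these samples, which may be technical.

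Enzalutamide is an antiandrogen used against prostate cancer, and it lowers the transcription of genes that androgens switch on in prostate cells. The 4 genes have unrelated products. MBOAT2 is a membrane-bound O-acyltransferase that attaches fatty acids to lysophospholipids and so shapes the lipids of cell membranes. MAOA is monoamine oxidase A, an enzyme of the outer mitochondrial membrane that breaks down serotonin and noradrenaline. RHOU is an atypical small GTPase that acts on the actin skeleton, and TMEM132D is a protein with a single membrane span whose function is poorly known.

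The promoters are shown because the 4 genes were lower in the same libraries, so that their start regions can be compared. Each sequence is the 250 bases before a start listed by RefSeq (GRCh38.p14), given 5′ to 3′ on the strand of the gene, and capitals mark the GC box GGGCGG on either strand. The windows are chr2:9003685-9003934 on the minus strand for MBOAT2, chrX:43656049-43656298 on the plus strand for MAOA, chr1:228735229-228735478 on the plus strand for RHOU and chr12:129904026-129904275 on the minus strand for TMEM132D. For RHOU, which has 2 listed starts, the window before the second is shown. The MAOA window and the RHOU window shown lie inside the RefSeq span of their gene, since the listed start is downstream of the first base of that span.
MBOAT2: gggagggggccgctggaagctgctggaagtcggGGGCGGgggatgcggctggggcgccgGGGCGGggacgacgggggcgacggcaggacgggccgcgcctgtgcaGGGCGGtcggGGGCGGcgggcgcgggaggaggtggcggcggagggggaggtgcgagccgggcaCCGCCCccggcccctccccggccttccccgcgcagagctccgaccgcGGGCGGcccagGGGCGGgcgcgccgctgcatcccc
MAOA: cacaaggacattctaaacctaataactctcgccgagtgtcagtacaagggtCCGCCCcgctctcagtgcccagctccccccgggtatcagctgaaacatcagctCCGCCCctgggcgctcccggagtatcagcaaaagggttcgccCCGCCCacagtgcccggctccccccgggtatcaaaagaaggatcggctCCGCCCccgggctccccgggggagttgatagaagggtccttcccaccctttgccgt
RHOU: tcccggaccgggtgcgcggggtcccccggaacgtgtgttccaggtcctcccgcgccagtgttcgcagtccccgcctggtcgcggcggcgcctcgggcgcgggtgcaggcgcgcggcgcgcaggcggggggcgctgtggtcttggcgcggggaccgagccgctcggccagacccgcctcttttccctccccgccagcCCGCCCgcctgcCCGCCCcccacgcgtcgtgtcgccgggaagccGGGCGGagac
TMEM132D: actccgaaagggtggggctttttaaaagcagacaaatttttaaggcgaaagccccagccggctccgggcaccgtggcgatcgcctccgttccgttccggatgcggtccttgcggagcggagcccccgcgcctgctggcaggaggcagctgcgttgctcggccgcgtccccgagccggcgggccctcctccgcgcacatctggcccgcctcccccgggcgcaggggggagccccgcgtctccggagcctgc
The GC box occurred 7 times before MBOAT2, 4 times before the listed MAOA start, 3 times before the second RHOU start and 0 times before TMEM132D and the first RHOU start, and 42.6% of 35116 windows of the same length held at least 1. CpG pairs numbered 37 for MBOAT2, 17 for MAOA, 41 for the second RHOU start, 23 for the first and 30 for TMEM132D, against a median of 11 over all windows. These letter matches describe the windows alone.

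In RefSeq (GRCh38.p14) all 4 are protein-coding genes. MBOAT2 (ENSG00000143797) spans 151 kb at chr2:8852690-9003684, MAOA (ENSG00000189221) 91.8 kb at chrX:43655006-43746817, RHOU (ENSG00000116574) 102 kb at chr1:228644647-228746669 and TMEM132D (ENSG00000151952) 832 kb at chr12:129071726-129904025. CPM values, counts relative to the library size, were scaled by TMM factors, which correct for the composition of each library. Per kb of span, vehicle cells held 3.2 ± 0.14 CPM (SD, n = 2) at MAOA, 2.09 ± 0.104 at MBOAT2, 0.384 ± 0.0632 at RHOU and 0.111 ± 0.0098 at TMEM132D. MAOA and MBOAT2 were therefore the most densely transcribed, and neighbours in this order differed by more than their spread. The place of RHOU rests on its span: over the 11.2 kb from its second start the same counts gave 3.5 ± 0.576 CPM per kb, which overlapped MAOA.

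Library totals ran from 3438642 to 9363458 counts in batch 1 and from 10494563 to 19905824 in batch 2. All 10 LNCaP and luminal prostate markers exceeded 1 CPM, with a sum of 2933 to 3950 CPM per sample. Of the markers of other cell types, 3 of 5 basal, 5 of 6 fibroblast, 1 of 6 leukocyte and 4 of 5 endothelial genes exceeded 1 CPM, none was at 0 in every sample, and their sums were at most 78.7, 18.6, 66.5 and 37.9 CPM. The highest in these lists were the basal gene DST, at 38.8 to 71.9 CPM, and the leukocyte gene CD68, at 44.4 to 64.7 CPM. TP63, which defines basal cells, was at 3.15 to 7.1 CPM, whereas the basal keratin KRT5 and the leukocyte gene PTPRC stayed at or below 0.724 and 0.913 CPM. CDKN1A, a p53 target that marks the IR response, rose by 3.65 on the log2 scale in batch 1 (edgeR adjusted p = 1.52e-07) and by 3.02 in vehicle cells of batch 2 (edgeR adjusted p = 5.5e-07). TMPRSS2 and ZBTB16, classical androgen-induced genes, fell by 0.58 and 0.83 with enzalutamide (edgeR adjusted p = 0.00123 and 1.91e-05). KLK3, the gene of prostate-specific antigen, changed by -0.66 (edgeR adjusted p = 0.69, or 0.00204 with the replicate number as a block) and FKBP5 by -0.26 (0.22, or 0.00502 with the block). KLK3 was at 178 and 181 CPM in mock cells of batch 1 but at 13.5 and 17.1 CPM in vehicle cells of batch 2, in tables that were scaled separately. The same 2 groups had mean CPM of 412 and 475 for TMPRSS2 and 724 and 811 for ZBTB16. For FKBP5 the means were 208 and 155, and for CDKN1A 45.1 and 40.6. The cause of the KLK3 gap was not tested.

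**Figure D1:**
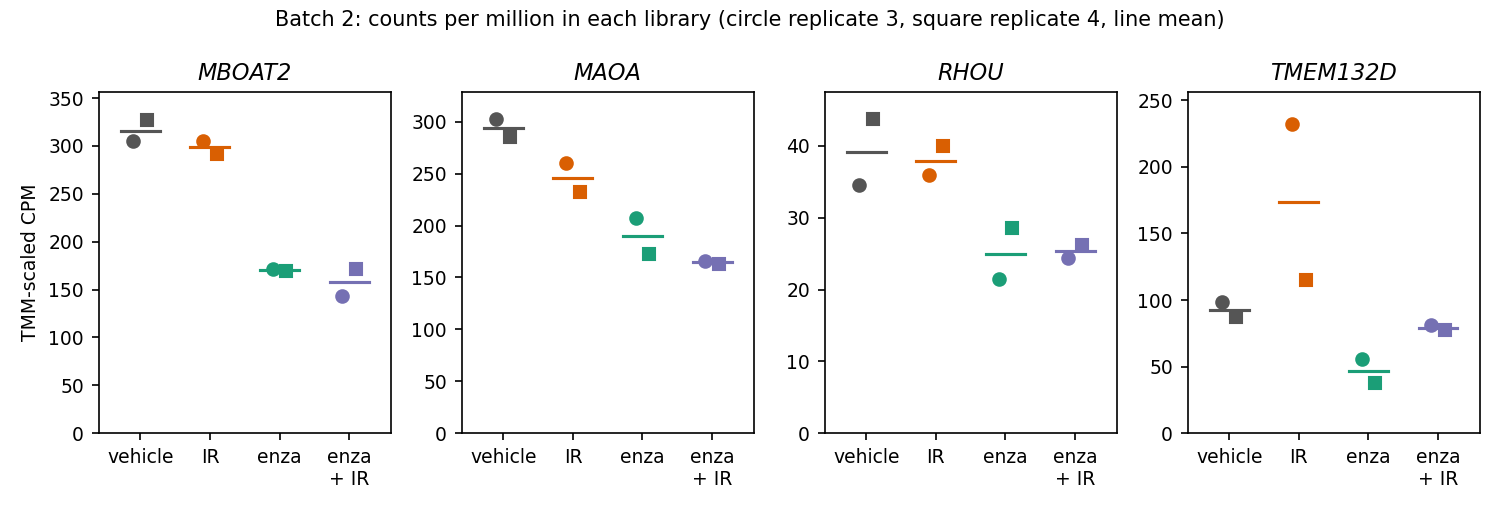
TMM-scaled CPM (vertical axes, starting at 0) of the 4 genes in each of the 8 batch 2 libraries, with circles for replicate 3, squares for replicate 4 and lines for the mean of 2. In every panel the 4 libraries with enzalutamide lie below the 4 without it, and the irradiated vehicle library of replicate 3 stands high for TMEM132D at 232 CPM.

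In batch 2 all 4 genes were lower in every library with enzalutamide than in any library without it. Averaged over irradiation, MBOAT2 was at 53.3% of its level without the drug, MAOA at 65.8%, RHOU at 64.9% and TMEM132D at 48%. This contrast chose the genes, so its values are descriptions and carry no test. Of 28651 genes tested, 18 (0.0628%) passed an edgeR adjusted p of 0.05 for this contrast, all of them lower, and the 4 genes are among these by construction. With the replicate number as a block 272 genes passed, 191 of them lower. In a bulk culture, fewer cells that transcribe a gene and less transcription per cell cannot be told apart.

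MBOAT2, the acyltransferase, stood at 305 and 327 CPM in vehicle cells (replicates 3 and 4), 305 and 292 in irradiated cells, 172 and 169 in enzalutamide cells and 143 and 172 in cells with both treatments. The 4 libraries without the drug lay close together, and the lowest of them was far above the highest with it. Averaged over irradiation the log2 fold change was -0.91 (SE 0.0634, 95% interval -1.04 to -0.77), and it was -0.89 without and -0.92 with IR. Within same-numbered pairs the log2 difference ran from -0.77 to -1.09.

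MAOA, the amine-degrading enzyme, stood at 303 and 285 CPM in vehicle cells, 260 and 232 in irradiated cells, 207 and 173 in enzalutamide cells and 166 and 163 in cells with both. The groups formed a descending series without overlap, with vehicle on top and the double treatment at the bottom. The log2 fold change with enzalutamide was -0.60 (SE 0.0662, 95% interval -0.75 to -0.46), with -0.63 in unirradiated and -0.58 in irradiated cells. The 4 pair differences ran from -0.51 to -0.72.

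RHOU, the small GTPase, was the least counted of the 4, with 34.6 and 43.7 CPM in vehicle cells, 35.9 and 40 in irradiated cells, 21.4 and 28.6 in enzalutamide cells and 24.4 and 26.2 in cells with both. Vehicle and irradiated cells overlapped, as did the 2 enzalutamide groups, and a gap separated the libraries with the drug from those without. The log2 fold change with enzalutamide was -0.62 (SE 0.1, 95% interval -0.84 to -0.41), at -0.66 without and -0.58 with IR, and the pair differences ran from -0.55 to -0.69.

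TMEM132D, the membrane protein, stood at 98.4 and 86.9 CPM in vehicle cells, 232 and 115 in irradiated cells, 55.4 and 37.5 in enzalutamide cells and 81.2 and 77.3 in cells with both. Irradiated vehicle cells were the highest group and their replicates lay far apart, whereas the double-treated libraries lay just under the vehicle ones. The log2 fold change with enzalutamide was -1.06 (SE 0.168, 95% interval -1.42 to -0.70), the most negative of the 4 genes and the least precise. Without irradiated replicate 3 it was -0.80, less negative than the -0.89 of MBOAT2 without the same library. It was -0.98 without IR and -1.13 with IR, and the latter became -0.54 without irradiated replicate 3 and -1.56 without irradiated replicate 4. The pair differences ran from -0.58 to -1.51.

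The genes were proposed as the strongest unexpected falls, and the files hold no measure of what was expected. Among 18730 genes that averaged 50 counts or more, TMEM132D ranked 7, MBOAT2 11, RHOU 25 and MAOA 30 by the size of the fall. The genes directly beside them in that order were GPA33 at -1.13 and EFEMP2 at -0.99 around TMEM132D, PLCXD2 at -0.94 and ELOVL2 at -0.83 around MBOAT2, EDNRB at -0.64 and PIK3AP1 at -0.62 around RHOU, and ADAM7 at -0.61 and SLC2A12 at -0.60 around MAOA. Genes outside the 4 thus had estimates of similar size.

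Cells given both treatments were compared with vehicle cells, which again contains the contrast behind the choice, so these intervals are not corrected for it either. MBOAT2 was at 49.9% of vehicle (95% interval of the log2 change -1.22 to -0.79), MAOA at 56% (-0.84, SE 0.103) and RHOU at 64.6% (-0.63, SE 0.149). TMEM132D was at 85.5% (-0.23, SE 0.244), with a 95% interval of -0.75 to 0.30. In this comparison 435 of 28651 genes (1.52%) passed the threshold, or 3205 with the replicate block. The comparison shares its vehicle libraries with the contrast of IR alone, for which 314 genes (1.1%) passed, or 1315 with the block. The same libraries serve the contrast of enzalutamide alone, for which 3 genes (0.0105%) passed, or 55 with the block. Enzalutamide in irradiated cells also gave 3 genes (0.0105%), or 55 with the block.

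Whether the drug's effect differed after irradiation was tested by the interaction of IR and enzalutamide. None of the 28651 genes passed (0%) by edgeR, 343 had an unadjusted p under 0.05, DESeq2 called 0, and the fit with the replicate block called 1. The interaction was -0.03 for MBOAT2 (95% interval -0.33 to 0.27), 0.05 for MAOA (-0.26 to 0.36), 0.08 for RHOU (-0.38 to 0.54) and -0.16 for TMEM132D (-0.91 to 0.59), with an edgeR adjusted p of 1 for each. The TMEM132D interval is the widest of the 4, and its sign turned to 0.44 without irradiated replicate 3 and to 0.17 without enzalutamide replicate 3.

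The response to irradiation was not the contrast that chose the genes, and it was tested. In batch 2 its tests share the libraries and the estimate of spread with that contrast, so they are not fully independent of the choice. Averaged over the drug in batch 2, TMEM132D rose 1.78-fold, while MBOAT2, MAOA and RHOU did not pass the test. That is 1 of 4 genes, where 1349 of 28651 genes (4.71%) passed. With the replicate block, TMEM132D and MAOA, 2 of the 4, passed, where 4307 of all genes (15%) did, and DESeq2, total counts and a mean of at least 50 counts also gave 2 of the 4. Of the 4 estimates 3 were below 0, beside a median of -0.01 over all genes tested.

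TMEM132D was higher after IR in all 4 same-numbered pairs, by 1.24 and 0.41 on the log2 scale in vehicle cells and by 0.55 and 1.04 in enzalutamide cells. Averaged over the drug its log2 fold change was 0.83 (SE 0.167, 95% interval 0.48 to 1.19, edgeR adjusted p = 0.0106). The rise kept its call without any 1 of the 8 libraries, at 0.57 to 1.01, with the smallest value when irradiated replicate 3 was left out (edgeR adjusted p = 0.0259). In vehicle cells alone it was 0.91 (SE 0.24, edgeR adjusted p = 0.127, or 0.85 and 3.24e-05 with the replicate block), in a comparison in which 0 of the 4 genes and 314 of all genes (1.1%, or 1315, 4.59%, with the block) passed. At an unadjusted p under 0.05, MAOA and TMEM132D were different in that comparison, where 11% of all genes were. DESeq2 called 0 of the 4. Irradiated replicate 3 carried much of this value: without it the change was 0.32 (edgeR adjusted p = 0.826), and without irradiated replicate 4 it was 1.32 (edgeR adjusted p = 0.00251). Without either enzalutamide library, which changes only the shared estimate of spread, the 0.91 passed (edgeR adjusted p = 0.0277 and 0.026).

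Under enzalutamide the IR change of TMEM132D was 0.75 (SE 0.252, 95% interval 0.21 to 1.30, edgeR adjusted p = 0.337). With the replicate block it was 0.80 (edgeR adjusted p = 0.000406), and it also passed without either irradiated vehicle library (edgeR adjusted p = 0.0387 and 0.0411). None of the 4 genes passed here by edgeR without the block or by DESeq2. Of all genes 263 (0.918%) passed by edgeR, or 951 (3.32%) with the block. TMEM132D alone of the 4 had an unadjusted p under 0.05, beside 9.49% of all genes. All 4 irradiated libraries of TMEM132D lay above the unirradiated libraries of the same drug group.

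MAOA was lower after IR in all 4 pairs, by -0.22 and -0.30 in vehicle cells and by -0.32 and -0.08 in enzalutamide cells. The average was -0.23 (SE 0.066, 95% interval -0.38 to -0.09), and the edgeR adjusted p was 0.06, or 0.00186 with the replicate block. The value of MAOA was the same with DESeq2, where the adjusted p was 0.0381, and it also passed without enzalutamide replicate 4 (-0.29, edgeR adjusted p = 0.0126). In vehicle cells alone it was -0.26 (edgeR adjusted p = 0.367, or 0.0418 with the block) and in enzalutamide cells -0.21 (edgeR adjusted p = 0.561).

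MBOAT2 changed by -0.10 on average (SE 0.063, 95% interval -0.23 to 0.04, edgeR adjusted p = 0.397), with -0.08 in vehicle and -0.11 in enzalutamide cells. RHOU changed by -0.01 (SE 0.1, 95% interval -0.22 to 0.21, edgeR adjusted p = 0.972), with -0.05 and 0.03 in the same groups. Both intervals include 0, and the one of MBOAT2 reaches the value estimated for MAOA.

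**Figure D2:**
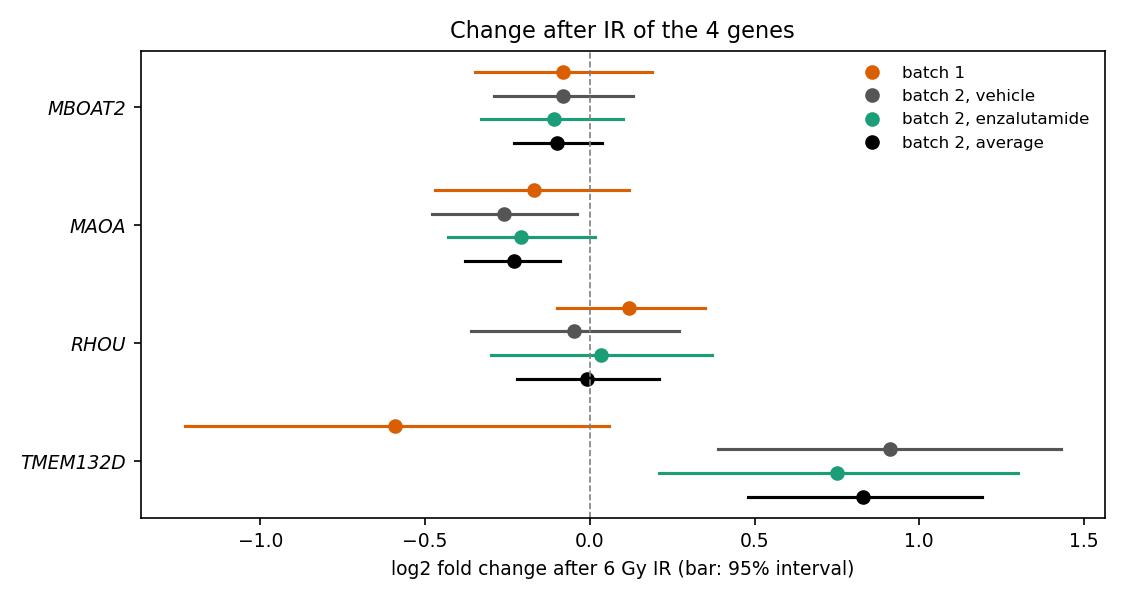
Log2 fold change after 6 Gy of IR (horizontal axis) of the 4 genes in batch 1, in vehicle and in enzalutamide cells of batch 2 and averaged over the drug, with points for the edgeR estimate and bars for its 95% interval. MBOAT2 and RHOU lie near 0 in all 4 estimates, the MAOA estimates lie between -0.26 and -0.17, and TMEM132D is at -0.59 in batch 1 and between 0.75 and 0.91 in batch 2.

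The libraries of batch 1 did not behave alike, which bears on every value below. For MBOAT2 the mock t1 libraries had 268 and 292 CPM and the mock t2 libraries 183 and 143, while the irradiated t1 libraries had 168 and 145 and the irradiated t2 libraries 276 and 273. MAOA gave 307 and 351, 208 and 209, 203 and 194, and 272 and 295 CPM in the same order. The t1 library was thus the higher one in mock cells and the lower one in irradiated cells, in both replicates and for both genes. The mock t1 values thus lay near those of irradiated t2, and the mock t2 values near those of irradiated t1. The meaning of t1 and t2 is not given in the labels, and whether it is the same in mock and irradiated cells was not tested. The share of counts on mitochondrial genes moved likewise, at 4.25% and 5.06% in mock t1, 3.24% and 3.94% in mock t2, 2.87% and 2.86% in irradiated t1 and 5.38% and 4.47% in irradiated t2, and its part in the values was not tested.

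RHOU varied little, with 40.4 and 41.8 CPM in mock t1, 42.7 and 47.8 in mock t2, 44.2 and 50.8 in irradiated t1 and 48.5 and 44.8 in irradiated t2. TMEM132D varied most of the 4, with 136 and 142 CPM in mock t1, 686 and 394 in mock t2, 410 and 72.6 in irradiated t1 and 139 and 238 in irradiated t2. Its mock libraries were low in t1 and high in t2, the reverse of MBOAT2 and MAOA, and its irradiated libraries had no common order.

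**Figure D3:**
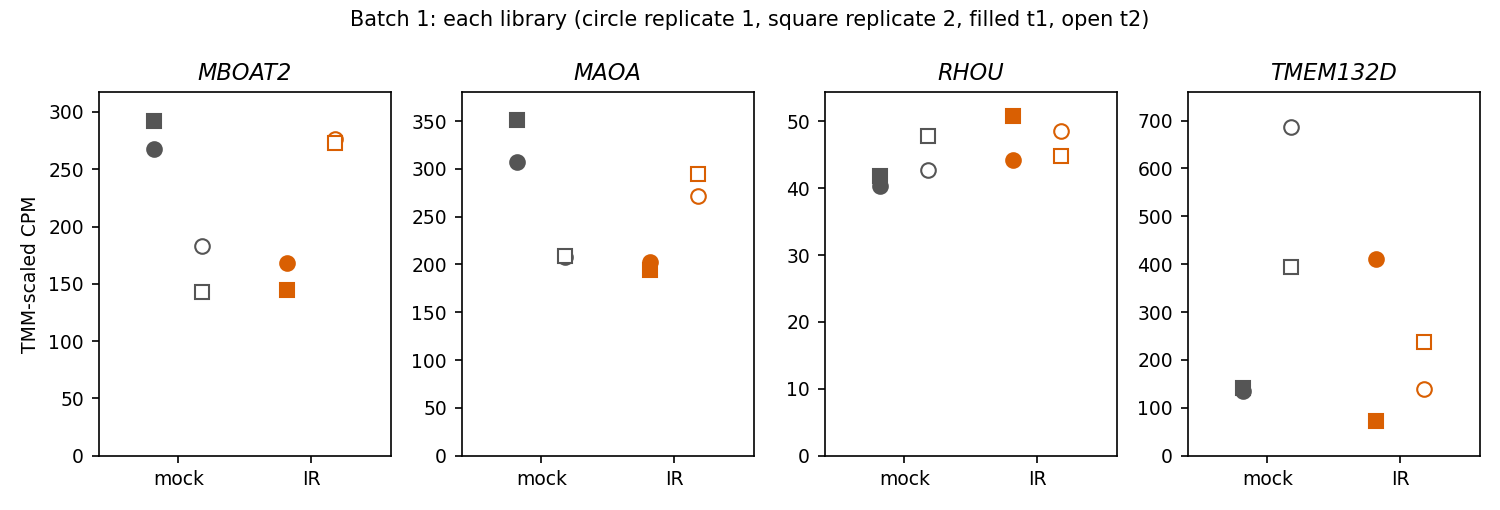
TMM-scaled CPM (vertical axes, starting at 0) of the 4 genes in each of the 8 batch 1 libraries, with circles for replicate 1, squares for replicate 2, filled symbols for t1 and open symbols for t2. For MBOAT2 and MAOA the mock t1 and irradiated t2 libraries are the high ones, and TMEM132D runs from 72.6 to 686 CPM.

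With t1 and t2 summed, MBOAT2 stood at 220 and 226 CPM in mock and 209 and 214 in irradiated cells of batch 1, and MAOA at 251 and 287 against 229 and 247. RHOU stood at 42.1 and 43.4 against 45.9 and 47.3 CPM, and TMEM132D at 464 and 241 against 308 and 162. Irradiated cells lay below mock cells without overlap for MBOAT2 and MAOA and above them without overlap for RHOU, and the groups of TMEM132D overlapped. The log2 changes were -0.08 for MBOAT2 (SE 0.124, edgeR adjusted p = 0.896), -0.17 for MAOA (SE 0.135, edgeR adjusted p = 0.719), 0.12 for RHOU (SE 0.103, edgeR adjusted p = 0.75) and -0.59 for TMEM132D (SE 0.297, edgeR adjusted p = 0.508). None of the 4 passed and DESeq2 called 0 of them. Of 25889 genes 731 (2.82%) passed by edgeR, or 2332 (9.01%) with the replicate block. None of the 4 had an unadjusted p under 0.05, which 11.5% of all genes had.

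The 95% intervals were -0.35 to 0.19 for MBOAT2, -0.47 to 0.12 for MAOA, -0.10 to 0.35 for RHOU and -1.23 to 0.06 for TMEM132D. The same-numbered pairs of TMEM132D differed by -0.59 and -0.57 once t1 and t2 were summed. Taken apart, replicate 1 went from 136 to 410 CPM in t1 and from 686 to 139 in t2. Replicate 2 went from 142 to 72.6 CPM in t1 and from 394 to 238 in t2. With the replicate block TMEM132D passed at -0.58 (SE 0.084, edgeR adjusted p = 5.01e-07), in a fit that, on so few samples, takes much of its spread from other genes. Which library was left out decided its size and call, from -0.04 without mock replicate 1 (edgeR adjusted p = 0.978) and -0.20 without irradiated replicate 2 (edgeR adjusted p = 1) to -0.99 without mock replicate 2 (edgeR adjusted p = 3.8e-09) and -1.12 without irradiated replicate 1 (edgeR adjusted p = 0.000975).

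With t1 or t2 libraries alone, MBOAT2 and MAOA changed in opposite directions, and these calls hold only if t1 and t2 mean the same in both arms. In t1 alone 3995 of 23134 genes (17.3%) passed and in t2 alone 9800 of 21930 (44.7%). MBOAT2 fell by 0.82 in t1 (edgeR adjusted p = 0.00498) and rose by 0.75 in t2 (edgeR adjusted p = 0.000607). MAOA fell by 0.70 in t1 (edgeR adjusted p = 0.0153) and rose by 0.45 in t2 (edgeR adjusted p = 0.00817). TMEM132D was at 0.82 in t1 (edgeR adjusted p = 0.196) and fell by 1.51 in t2 (edgeR adjusted p = 0.000312). RHOU was above 0 in both, at 0.23 and 0.04 (edgeR adjusted p = 0.299 and 0.775).

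The change of TMEM132D after IR was opposite in sign in the 2 batches, and the difference between batches was tested with batch as a term, without the enzalutamide libraries. Batch 1 minus batch 2 was -1.52 for TMEM132D (SE 0.423, 95% interval -2.41 to -0.63, edgeR adjusted p = 0.468), and with the replicate block it was -1.44 (edgeR adjusted p = 0.000732). It was -0.14 with t1 libraries alone and -2.42 with t2 libraries alone, it was called at -1.91 without mock replicate 2 (edgeR adjusted p = 0.0493), and it was -0.93 without irradiated replicate 3 of batch 2 and -0.97 without mock replicate 1. The difference was -0.02 for MBOAT2 (95% interval -0.34 to 0.30), 0.06 for MAOA (-0.29 to 0.41) and 0.15 for RHOU (-0.20 to 0.50), with edgeR adjusted p of 0.999, 0.993 and 0.957. None of the 4 passed without the block, by edgeR or DESeq2. Of 29195 genes 31 (0.106%) passed by edgeR, or 96 (0.329%) with the block. TMEM132D alone of the 4 had an unadjusted p under 0.05, beside 5.66% of all genes. Batch 1 cells had no vehicle named in the labels, so batch, vehicle and handling cannot be told apart.

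**Figure D4:**
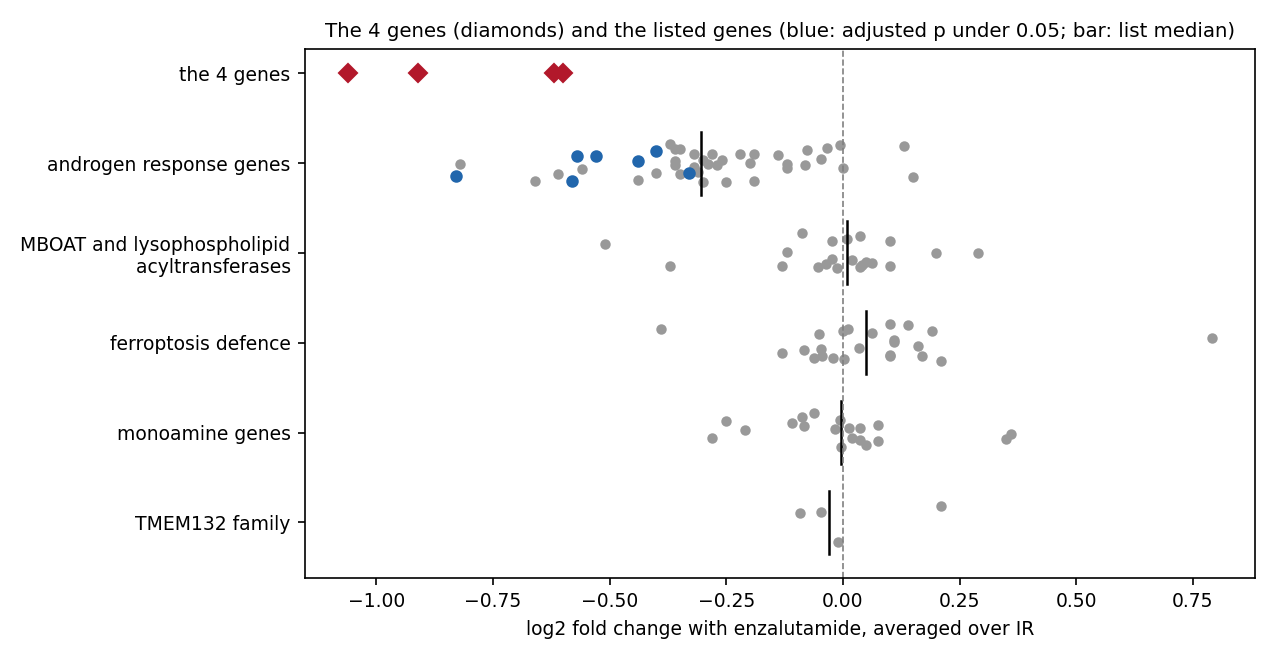
Log2 fold change with enzalutamide averaged over IR (horizontal axis) for the 4 genes (diamonds) and for the tested genes of 5 lists, with blue points for genes past an edgeR adjusted p of 0.05 and bars for list medians. The androgen response genes have a median of -0.30 and all 7 blue points, and the medians of the other lists lie between -0.03 and 0.05.

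The 4 genes were set beside lists of related genes, each without the 4 themselves. Of 46 androgen response genes, 44 were tested, 7 fell with enzalutamide and 0 rose, where 0.0628% of all genes passed, and with the replicate block 24 fell, where 0.949% of all genes passed. Their median log2 change was -0.30, beside 0.00074 over all genes tested, 41 of the 44 were below 0, and 29 had an unadjusted p under 0.05, as had 6.21% of all genes. ZBTB16, TMPRSS2, SLC45A3 (-0.57, edgeR adjusted p = 0.000828), PMEPA1 (-0.53, edgeR adjusted p = 0.0165), ELL2 (-0.44, edgeR adjusted p = 0.00512) and ABCC4 (-0.40, edgeR adjusted p = 0.0496) were among the 7. After IR averaged over the drug 3 of the 44 rose (PMEPA1, ELOVL7 and FAM13C) and 4 fell, among them SLC45A3, ZBTB16 and UAP1. For that comparison 4.71% of all genes passed. With the replicate block 4 of the 44 rose and 17 fell, where 15% of all genes passed. The median of the 44 without the block was -0.14, beside -0.01 over all genes tested.

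Lists of relatives of MBOAT2, MAOA and TMEM132D are given next. At the 0.0628% of all genes that passed for enzalutamide, a count of 0 in lists of this size is the background and says nothing particular about them, and 6.21% of all genes had an unadjusted p under 0.05. Of 21 other MBOAT and lysophospholipid acyltransferase genes, 0 passed for enzalutamide in either direction, 0 had an unadjusted p under 0.05 and the median was 0.01. MBOAT1, the nearest relative of MBOAT2 in the list, was at -0.13 (edgeR adjusted p = 0.887), MBOAT7 at 0.20 (edgeR adjusted p = 0.879) and LPCAT3 at 0.06 (edgeR adjusted p = 0.918). After IR averaged over the drug, TMEM68, an acyltransferase of triglyceride synthesis, rose by 0.52 (edgeR adjusted p = 0.000126). It was the 1 gene of the 21 that passed, where 4.71% of all genes did. In batch 1, where 2.82% of all genes passed, 2 of 19 tested genes of the list rose. They were TMEM68 at 0.85 and HHAT, which attaches palmitate to hedgehog proteins, at 0.53 (edgeR adjusted p = 0.000616 and 0.044). HHAT did not pass in batch 2, at 0.06 averaged over the drug (edgeR adjusted p = 0.747).

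Membrane phospholipid composition also bears on ferroptosis, an iron-dependent death by lipid peroxidation. Of 24 tested genes of ferroptosis defence and lipid peroxidation, 0 passed for enzalutamide, where 0.0628% of all genes did, with a median of 0.05 and 3 genes above 0 at an unadjusted p under 0.05, beside 6.21% of all genes in either direction. CHAC1, which degrades glutathione, was at 0.79 (edgeR adjusted p = 0.355, or 0.000239 with the replicate block). DHCR7, the last enzyme of cholesterol synthesis, rose after IR by 0.30 averaged over the drug (edgeR adjusted p = 0.00588). It was the 1 gene of the 24 that passed for IR, where 4.71% of all genes did.

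Of 19 tested genes of monoamine synthesis, transport and breakdown, 0 passed for enzalutamide, 1 had an unadjusted p under 0.05 and the median was -0.01, which is near the shares of 0.0628% and 6.21% over all genes. MAOB, the sister enzyme of MAOA, was at 0.08 (SE 0.181, edgeR adjusted p = 0.966) and was scarce, with 2.17 to 4.4 CPM in batch 2. RNLS was at -0.25 (edgeR adjusted p = 0.736). After IR averaged over the drug 3 of the 19 rose and 0 fell, where 4.71% of all genes passed. They were ALDH2 at 0.59 and AKR1A1 at 0.47, which oxidize and reduce aldehydes, and the transporter SLC29A4 at 0.46 (edgeR adjusted p = 0.000183, 9.3e-05 and 0.0422). In batch 1, where 2.82% of all genes passed, 2 of 18 tested genes of the list rose. They were AKR1A1 at 0.88 and SLC18A1, a vesicular monoamine transporter, at 1.73 (edgeR adjusted p = 0.000268 and 0.00557). SLC18A1 was scarce, at 1.25 to 5.37 CPM in batch 1. It did not pass in batch 2, at 0.46 averaged over the drug (edgeR adjusted p = 0.271).

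The 4 other TMEM132 genes gave 0 calls for enzalutamide, 0 at an unadjusted p under 0.05 and a median of -0.03, a list too short to differ from the 0.0628% of all genes that passed. After IR averaged over the drug in batch 2, where 4.71% of all genes passed, TMEM132C fell by 0.60 (edgeR adjusted p = 0.0267). That was opposite to TMEM132D in the same batch, and TMEM132C was scarce there, at 6.97 to 15.1 CPM. TMEM132A was at 0.26 (edgeR adjusted p = 0.0716, or 0.00834 with the block) and TMEM132B at -0.28 (edgeR adjusted p = 0.272, or 0.0461 with the block). With the block 15% of all genes passed. In batch 1 TMEM132C was at 0.10 after IR (edgeR adjusted p = 0.915) and TMEM132D at -0.59.

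**Figure D5:**
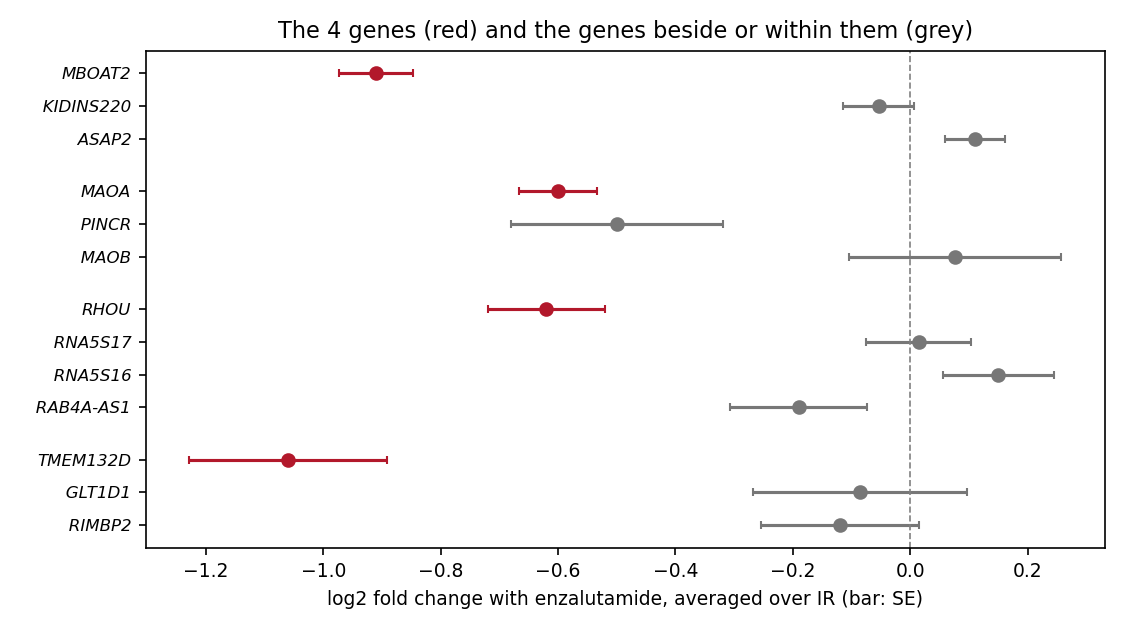
Log2 fold change with enzalutamide averaged over IR (horizontal axis) for the 4 genes in red and the genes beside or within them in grey, with bars for the SE. None of the grey points passed the test, and PINCR at -0.50 is the lowest of them.

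The genes beside the 4 on the chromosome were examined next. Of the 9 tested genes that lie beside or within them, 0 passed for enzalutamide by edgeR, with or without the replicate block, where 0.0628% and 0.949% of all genes did, and 2 had an unadjusted p under 0.05, where 6.21% of all genes had. KIDINS220, 15.1 kb from MBOAT2, was at -0.05 and ASAP2, 203 kb away on its other side, at 0.11. MAOB, 19.8 kb from MAOA, was at 0.08, and PINCR, a long non-coding RNA 428 kb away on the other side, was at -0.50 (SE 0.181, edgeR adjusted p = 0.736). PINCR rose after IR, by 0.95 in batch 2 and by 2.62 in batch 1 (edgeR adjusted p = 0.00733 and 0.000151), where MAOA was at -0.23 and -0.17.

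RHOU overlaps the 5S ribosomal RNA gene RNA5S17 and lies 0.72 kb from RNA5S16, which were at 0.01 and 0.15. These are near-identical copies whose counts are uncertain, and RAB4A-AS1, 510 kb from RHOU on its other side, was at -0.19. RNA5S17 fell after IR by 0.53 averaged over the drug (edgeR adjusted p = 0.00288), where RHOU was at -0.01. GLT1D1 and RIMBP2, 86.8 kb and 492 kb from TMEM132D, were at -0.09 and -0.12. The antisense genes within TMEM132D held 10 counts (TMEM132D-AS1) and 5 counts (TMEM132D-AS2) over all of batch 2. Whether the counting used strand is not given in the sources used here, so sense and antisense reads cannot be told apart.

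Across the 8 libraries of batch 2 the log2 CPM of MBOAT2 and MAOA had a Pearson r of 0.927, MBOAT2 and RHOU 0.905, MAOA and RHOU 0.732, and TMEM132D with the other 3 between 0.529 and 0.653. These values describe 8 libraries that share the drug groups behind the choice. In batch 1, which had no drug, the 8 libraries are t1 and t2 of 4 samples and not 8 independent samples. Across them MBOAT2 and MAOA, both high in mock t1 and irradiated t2, had an r of 0.939, while the other 5 pairs were negative, from -0.291 to -0.55. Among other genes that averaged 50 counts or more, those most like MBOAT2 in batch 2 were ENSG00000226380 (r = 0.975), ENSG00000285106 (0.971) and ZBTB16 (0.97). The 3 most like MAOA were SLC2A12 (0.991), C1orf21 (0.991) and C1orf116 (0.984), at -0.60, -0.25 and -0.57 with enzalutamide. Such genes were picked by likeness over the libraries behind the choice, so their enzalutamide values are descriptions and carry no test.

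Those most like RHOU were ENSG00000237422 (0.967), ENSG00000285106 (0.948) and ANKRD29 (0.946), and those most like TMEM132D were OAF (0.966), NAV1 (0.959) and FKBP10 (0.956). With enzalutamide these 6 were at -0.10 to -0.49, again as a description. Across the same t1 and t2 libraries of batch 1 the genes most like MBOAT2 and MAOA had an r of 0.827 to 0.982 with them, whereas those of RHOU had -0.0831 to -0.521 and those of TMEM132D -0.407 to -0.89.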

How the data were processed

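PRO-seq was analysed from 2 tables, 1 per batch, of whole-number counts per Ensembl gene identifier that the authors deposited. Per the submitters' processing notes, cutadapt 1.8.1, Bowtie2 2.4.4, SAMtools 1.9 and the build hg38 were used. The counting tool, the annotation, the counted region, the use of strand and any removal of duplicate reads are not given in the sources used here, so overlapping genes and near-identical copies are uncertain and pausing is not separated from elongation. A gene name was found for 60463 of 60605 identifiers (99.8%).

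Groups came from the labels. The t1 and t2 libraries of a replicate number were summed. No libraries of a group agreed within sampling noise: chi-square per degree of freedom was 7.65 to 34.7 between the t1 and t2 libraries that were summed, 3.28 to 7.14 between replicates with the same t label and 3.88 to 7.56 between replicates in batch 2.

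Counts were tested with edgeR 4.0.16 in R 4.3.3 (filterByExpr, TMM factors, glmQLFit, glmQLFTest), two-sided, with Benjamini-Hochberg adjustment over all genes tested and a threshold of 0.05. Batch 2 was fitted on all 8 libraries, with IR, enzalutamide and their interaction, or without the interaction for averages. SE were derived from each fold change and its F value, and 95% intervals from the model's t distribution. Log2 CPM used a prior count of 2. The steps were tested on simulated data.

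Groups share replicate numbers in the labels. Across genes, the replicate differences of 2 groups correlated at 0.102 to 0.262 over 6 pairs of groups in batch 2 and at 0.198 in batch 1. The main fits had no term for the replicate number and so ignored this pairing. A fit with the number as a block was run beside each. In batch 1 the block leaves few samples to estimate the spread of a gene, so much of it comes from other genes. Its values are given where they change a call or a count of calls. Alternatives were RLE factors, total counts, no filter, a mean of at least 50 counts, DESeq2 1.42.0, each replicate left out and t1 or t2 alone.

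Named besides the 4 genes were the listed genes past the threshold and up to 3 others with the smallest p, neighbours in RefSeq, the 3 genes per member with the highest Pearson r, genes beside the members in rank and checks of both treatments. MBOAT7 and LPCAT3 were named as close relatives. Some genes, lists and motifs that were analysed are not reported here. The members and lists were chosen with earlier results of these data known, the lists from general knowledge.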

Additional observations from a re-analysis of the deposited data

Results flagged for a closer look

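The difference between the batches in the response of TMEM132D to irradiation (log2, batch 1 minus batch 2) was tested directly. With the replicate number as a block it was -1.44 and passed (edgeR adjusted p = 0.000732). Without the block it was -1.52 and did not pass (edgeR adjusted p = 0.468). It was -0.14 with t1 libraries alone and -2.42 with t2 libraries alone, and it ran from -0.93 to -2.04 when 1 replicate was left out. In batch 1 its mock libraries had 464 and 241 CPM against 308 and 162 after IR, and in batch 2 its vehicle libraries had 98.4 and 86.9 CPM against 232 and 115 after IR.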

How the results depend on the processing

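With the replicate block the members past the threshold numbered 1 for IR in batch 1, 2 in vehicle cells, 1 in enzalutamide cells, 2 averaged over the drug and 1 for the difference between batches, and the genes numbered 2332, 1315, 951, 4307 and 96, with 1 for the interaction, and 272, 55, 55 and 3205 for enzalutamide averaged, without IR, with IR and plus IR against vehicle. Without a filter the members numbered 1, 1, 1, 2 and 1, and the genes 1157, 624, 556, 2391, 119, 32, 230, 74, 64 and 1278 in the same order. Averaged over the drug, total counts, a mean of at least 50 counts and DESeq2 each gave 2 members past the threshold. DESeq2 called 58, 13 and 7 genes for enzalutamide averaged, without IR and with IR. The MBOAT2 difference between batches was 0.043 with total counts and 0.019 with a mean of at least 50 counts. Pairing changed no other call of the 4 genes than those given above.

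With t1 alone, IR in batch 1 gave TMEM132D 0.82, 2 members and 3995 genes, and the difference between batches MAOA -0.48, 1 member and 452 genes. With t2 alone, it gave MBOAT2 0.75, MAOA 0.45, 3 members and 9800 genes, and the difference MBOAT2 0.84, 3 members and 5646 genes. The cause was not tested.

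Leaving out each replicate in turn, members past the threshold ran from 0 to 1 for IR in batch 1, in vehicle cells, in enzalutamide cells and for the difference between batches, and from 1 to 2 averaged over the drug. Genes ran from 587 to 1509 in batch 1, 161 to 511 in vehicle cells, 139 to 434 in enzalutamide cells, 611 to 1677 averaged, 0 to 4 for the interaction, 21 to 45 for the difference, 7 to 36 for enzalutamide averaged, 2 to 10 for it without IR, 1 to 6 for it after IR and 157 to 1143 for both treatments against vehicle. Here an arm with 1 sample is assumed to vary like the others. RHOU after IR ran from -0.2 to 0.14 in vehicle cells, -0.17 to 0.25 in enzalutamide cells and -0.092 to 0.08 averaged, and MBOAT2 from -0.25 to 0.039 in enzalutamide cells. The interaction ran from -0.17 to 0.12 for MBOAT2, -0.071 to 0.19 for MAOA, -0.13 to 0.29 for RHOU and -0.56 to 0.44 for TMEM132D. The difference between batches ran from -0.1 to 0.011 for MBOAT2, -0.063 to 0.17 for MAOA and -0.033 to 0.28 for RHOU. RHOU, with 301 to 849 counts per library of batch 2, had the fewest counts of the 4 genes.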
